A study of Homo sapiens with 10 samples.

Results

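Potassium channel genes were examined in 4 lines made from PC3 cells, a line established from human prostate cancer. The set was made of every gene entry with a symbol that starts with KCN, continues with letters only and ends in a number, which gave 93 entries of 23170 in all. These entries hold 94 symbols, because KCNJ12 and KCNJ18 share 1 entry. The rule uses names only and no measured value.

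The RNA-seq covered 2 samples of PC3-Epi, 3 of PC3-EMT14, 3 of PC3-EMT14-OVOL1 and 2 of PC3-EMT14-OVOL2. PC3-Epi is an epithelial subpopulation of luciferase-expressing PC3 cells. PC3-EMT14 is a mesenchymal subpopulation that was isolated after PC3-Epi cells had been cultured together with IL4-treated macrophages, which were grown from CD14+ monocytes. The OVOL lines are PC3-EMT14 cells transduced with lentivirus that overexpresses OVOL1 or OVOL2, zinc-finger transcription factors of epithelial cells. Each line is a single isolated or transduced derivative, and the labels describe the PC3-EMT14 samples as the mesenchymal line without naming an empty vector. Epithelial to mesenchymal transition (EMT) and its reverse (MET) are the processes that the comparisons address.

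Levels are given in FPKM, fragments scaled by transcript length and by sequencing depth, so levels of different genes can be set side by side. The authors deposited 1 pooled FPKM value per line and comparison. No value per sample was therefore used, the depth is unknown, and no difference below carries an SD or a test. A gene was counted as higher or lower in a comparison when it had at least 1 FPKM in the higher line and differed by a fold of at least 2. The same rule over all genes of the table gave the background share. Because the RNA came from whole cultures, fewer cells that express a gene and less RNA of it per cell cannot be told apart.

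Potassium channels let potassium leave or enter the cell along its gradient and so set the resting membrane potential, cell volume and electrical firing. The voltage-gated alpha subunits open when the membrane depolarizes, the calcium-activated channels open when calcium rises inside the cell, the inward rectifiers pass current more easily into the cell, and the two-pore-domain channels carry leak currents. Beta and accessory subunits do not form the pore and change how the pore-forming subunits gate, traffic or assemble. In cancer cells, calcium-activated channels have been studied for their roles in volume change, migration and proliferation.

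The lines were first checked against marker genes. OVOL1 was at 11.3 FPKM in PC3-EMT14-OVOL1 against 0.0243 FPKM in PC3-EMT14, and OVOL2 was at 831 FPKM in PC3-EMT14-OVOL2 against 0.383 FPKM in PC3-EMT14. PC3-Epi had 4.25 FPKM of OVOL1 and 9.91 FPKM of OVOL2. All 5 epithelial markers (CDH1, EPCAM, ESRP1, KRT8 and KRT18) were at least 2-fold higher in PC3-Epi than in PC3-EMT14, 3 of the 5 in the OVOL1 line and 4 of the 5 in the OVOL2 line. Of the 4 mesenchymal markers, VIM and ZEB1 were lower in PC3-Epi, none in the OVOL1 line, and 3 (VIM, ZEB1 and FN1) in the OVOL2 line. Among 6 genes of prostate luminal cells, KLK3 was listed at 0 in each line and HOXB13 ran from 22.2 to 89.8 FPKM. All 10 macrophage markers were below 0.1 FPKM in each line, with summed levels of 0.194 to 0.382 FPKM, and CD14 itself peaked at 0.0861 FPKM.

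Most potassium channel genes were at very low levels. Of the 93 entries, 19 (20.4%) reached 1 FPKM in any line, against 12634 of all 23170 genes (54.5%). The median of each gene's highest level was 0.05 FPKM for the potassium channel genes and 2.04 FPKM for all genes. A further 20 entries peaked between 0.1 and 1 FPKM, 54 never reached 0.1 FPKM, and 10 of those 54 were listed at 0 in every line. The 10 were KCNA1, KCNA3, KCNA5, KCNB2, KCNC2, KCND3, KCNH4, KCNJ16, KCNK16 and KCNK17. At the other end, 5 genes peaked at 10 FPKM or more, namely KCNMA1, KCNN4, KCNAB2, KCNK1 and KCNG1.

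**Figure D1:**
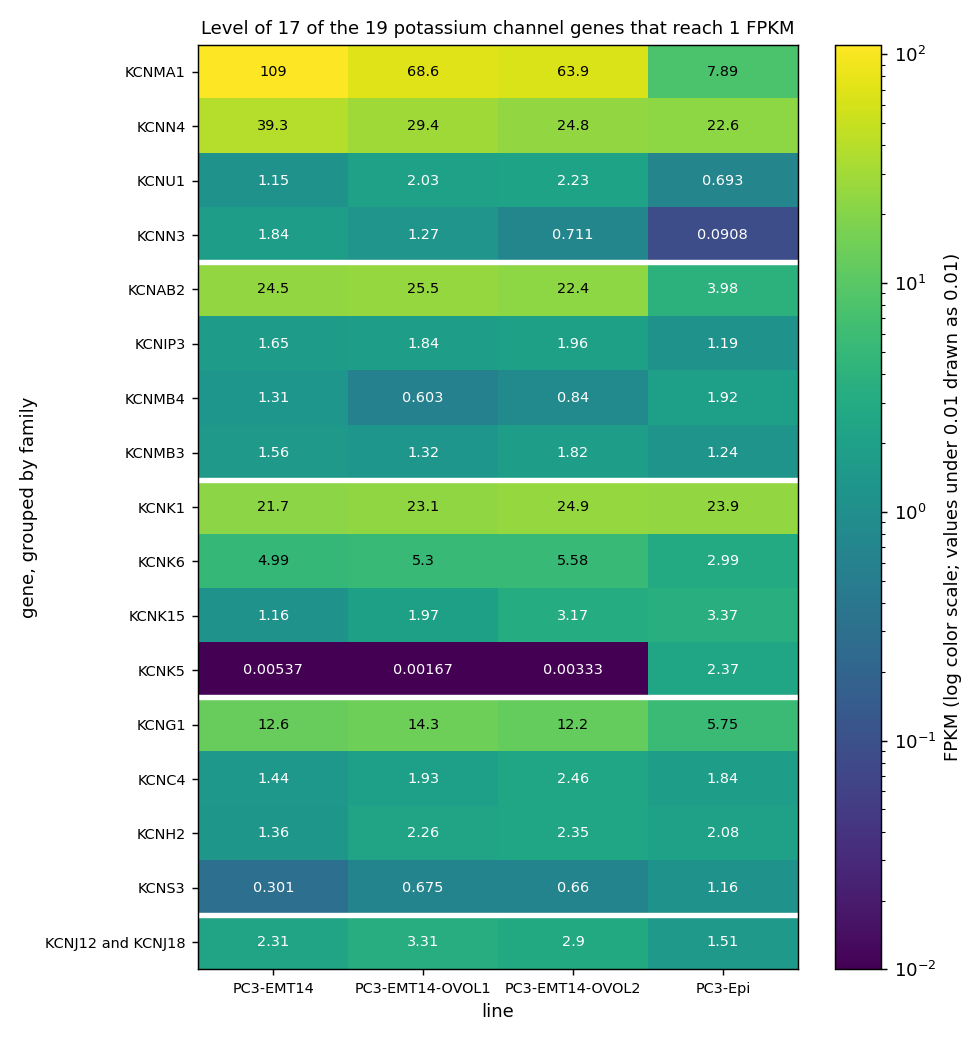
FPKM of 17 of the 19 potassium channel genes that reached 1 FPKM in any line, with lines on the horizontal axis, genes on the vertical axis grouped by family, and a logarithmic color scale. KCNMA1 is at 109 FPKM in PC3-EMT14 and at 7.89 FPKM in PC3-Epi, and KCNK5 is above 0.01 FPKM in PC3-Epi alone.

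The sequences just upstream of 3 genes are shown because these genes had the largest folds between PC3-Epi and PC3-EMT14 among the 19: KCNN3 and KCNMA1 were high in PC3-EMT14, and KCNK5 was high in PC3-Epi. Each is the 250 bases before a RefSeq transcript start on GRCh38.p14, printed 5′ to 3′ on the gene's strand, which is the minus strand for all 3. In the KCNMA1 sequence (chr10:77637809-77638058) and the KCNK5 sequence (chr6:39229476-39229725) the capitals mark CG pairs. In the KCNN3 sequence (chr1:154868071-154868320) the capitals mark CAGGTG, the E-box letters that ZEB1 is known to bind, at 192 bases before the start.
KCNMA1: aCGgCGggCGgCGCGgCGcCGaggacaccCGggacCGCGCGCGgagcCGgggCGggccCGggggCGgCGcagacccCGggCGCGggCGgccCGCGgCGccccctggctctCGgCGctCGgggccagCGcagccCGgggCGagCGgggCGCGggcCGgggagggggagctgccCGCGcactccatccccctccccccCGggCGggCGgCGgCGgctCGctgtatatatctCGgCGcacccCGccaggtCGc
KCNK5: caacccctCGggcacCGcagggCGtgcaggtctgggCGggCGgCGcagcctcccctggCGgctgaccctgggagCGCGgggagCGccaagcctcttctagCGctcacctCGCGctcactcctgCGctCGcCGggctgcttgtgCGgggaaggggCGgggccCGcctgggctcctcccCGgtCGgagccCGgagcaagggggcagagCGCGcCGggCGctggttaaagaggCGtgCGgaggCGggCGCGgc
KCNN3: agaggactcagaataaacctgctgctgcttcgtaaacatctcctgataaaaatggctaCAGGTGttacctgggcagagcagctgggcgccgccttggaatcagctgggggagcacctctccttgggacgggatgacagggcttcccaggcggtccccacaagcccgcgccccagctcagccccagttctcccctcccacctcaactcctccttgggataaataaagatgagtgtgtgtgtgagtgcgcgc

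These windows differ in base content. The KCNMA1 stretch holds 46 CG pairs, the KCNK5 stretch 31 and the KCNN3 stretch 9. With the 50 bases after the start included the counts are 54, 39 and 11, against a median of 14 over 35116 RefSeq promoter windows of 300 bases. A second RefSeq start of KCNMA1 has a window with 1 CG pair. KCNN3 has 3 RefSeq windows: besides the one printed, 1 holds CAGGTG at 230 bases before its start and 1 holds none. Windows were found for 70 of the 94 symbols (108 windows), with a median of 16 CG pairs. CAGGTG on either strand, which was searched as letters with no gap, stood in 24.1% of these windows and in 20.6% of all windows. Among the genes that reached 1 FPKM, 13 symbols had a window, and the rest could not be searched. CAGGTG stood in 8 of the 26 windows of these 13, those of KCNAB2, KCNH2, KCNK6, KCNMB3 and KCNN3. CCGTTA, core letters of the site bound by OVO proteins, stood in 3.07% of all windows and in 1 window of the set, that of KCNMB2, which was below 1 FPKM. The OVOL2 consensus given by the study also allows other letters in this core, and those were not searched. The files hold no binding or methylation data, so these matches describe the letters alone.

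Between PC3-Epi and PC3-EMT14, 19 potassium channel genes had at least 1 FPKM in the higher line, and 9 of them differed by at least 2-fold. Of the 19, 4 (21.1%) were higher in PC3-Epi, among them KCNK5, KCNS3 and KCNK15, where the background was 7.37% of 12441 genes. A further 5 (26.3%) were lower in PC3-Epi, among them KCNN3, KCNMA1, KCNAB2 and KCNG1, where the background was 8.34%. The background was not matched for level. Of the 19, 5 peaked at 10 FPKM or more, against 7271 of the 12634 genes that reached 1 FPKM in any line. These shares rest on 4 and 5 genes, and whether they differ from the background was not tested. The genes lower in PC3-Epi included 3 of the 5 most abundant potassium channel genes, and those higher in PC3-Epi peaked at 3.37 FPKM or less. The median log2 ratio of the 19 was -0.47, beside -0.01 over all genes at 1 FPKM. The genes nearest to the 2-fold limit were KCNG1 inside it (2.18-fold) and KCNN4 (1.74-fold) and KCNK6 (1.67-fold) outside it.

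Overexpression of OVOL1 was accompanied by few such differences. Of 16 genes at 1 FPKM in the OVOL1 line or PC3-EMT14, 0 were at least 2-fold higher in the OVOL1 line (background 2.43% of 12197 genes) and 1, KCNMB4, was lower (background 1.54%). KCNU1 (1.79-fold higher) and KCNK15 (1.73-fold higher) lay just outside the limit, and KCNMB4 just inside it at 2.13-fold. In PC3-EMT14-OVOL2, 1 gene of 16 was higher, KCNK15 (background 4.42% of 12307 genes), and 1 was lower, KCNN3 (background 2.93%). KCNU1 was 1.99-fold and KCNH2 1.78-fold higher in the OVOL2 line and were not counted. With 1 gene of 16 in a direction, these shares cannot be set apart from the background.

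Set directly against each other, the OVOL lines did not differ by 2-fold in any potassium channel gene with 1 FPKM. Of 15 genes at that level, 0 were higher in the OVOL2 line (background 1.9% of 12188 genes) and 0 were lower (background 1.17%). The nearest to the limit were KCNN3, 1.77-fold lower in the OVOL2 line, and KCNK15, 1.63-fold higher. The median log2 ratio was 0.12 for the OVOL1 line over PC3-EMT14, 0.23 for the OVOL2 line over PC3-EMT14 and 0.07 for the OVOL2 line over the OVOL1 line. Over all genes at 1 FPKM these medians were -0.002, -0.04 and -0.04. The potassium channel medians rest on 16, 16 and 15 genes.

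**Figure D2:**
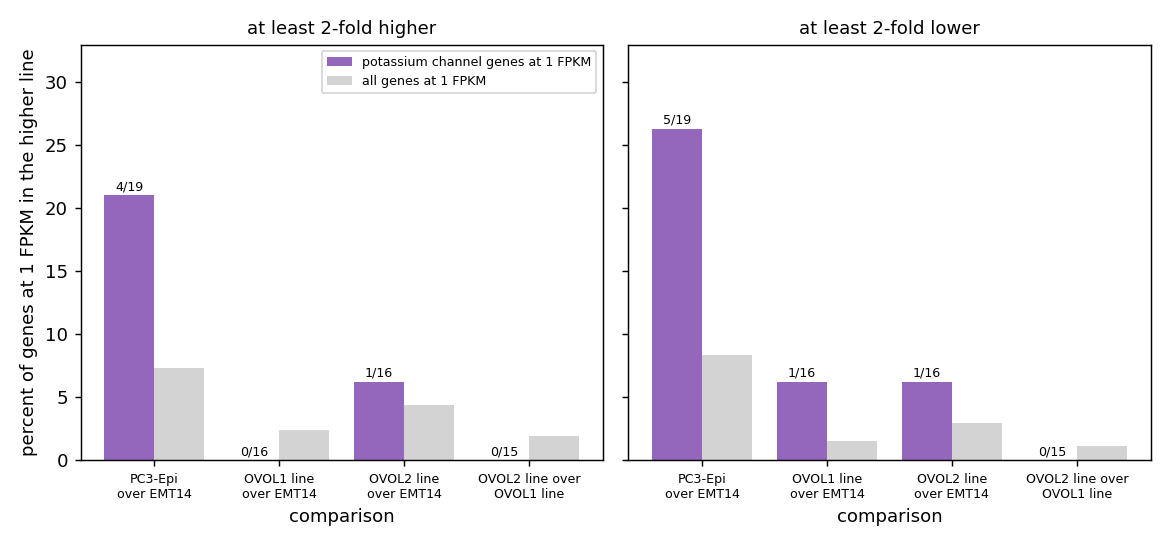
Percent of potassium channel genes (purple) and of all genes (grey) at 1 FPKM that were at least 2-fold higher (left) or lower (right) in each of the 4 comparisons, with the number of potassium channel genes over each purple bar. PC3-Epi against PC3-EMT14 gave 4 and 5 of 19, and the other comparisons gave 0 or 1 gene in each direction.

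The calcium-activated channels and their relatives formed the most abundant family in PC3-EMT14. The 8 genes summed to 152 FPKM in PC3-EMT14, 101 FPKM in the OVOL1 line, 91.7 FPKM in the OVOL2 line and 31.4 FPKM in PC3-Epi. As a share of the summed FPKM of all 93 entries this was 64.0%, 52.8%, 50.5% and 34.0%. The order of the lines was that of KCNMA1, which alone made up 46.1% of the summed level in PC3-EMT14 and 8.56% in PC3-Epi.

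KCNMA1 encodes the pore-forming subunit of the large-conductance BK channel, which opens in response to both voltage and calcium. It lies on chr10:78629359-79397577 (hg19, minus strand). Its level was 109 FPKM in PC3-EMT14, 68.6 FPKM in the OVOL1 line, 63.9 FPKM in the OVOL2 line and 7.89 FPKM in PC3-Epi. KCNMA1 was the most abundant potassium channel gene in each line except PC3-Epi, where it ranked behind KCNK1 and KCNN4. It was 13.8-fold lower in PC3-Epi than in PC3-EMT14, and 1.56-fold and 1.66-fold lower in the OVOL1 and OVOL2 lines, which is below the limit. The OVOL lines thus lay between the other lines and nearer to PC3-EMT14. One of 4 listed transcripts carried 92.0% of the gene's FPKM in PC3-EMT14, 93.5% and 93.1% in the OVOL1 and OVOL2 lines and 95.3% in PC3-Epi, so the same transcript dominated at high and low levels. Without KCNMA1, the summed level of the set was 128 FPKM in PC3-EMT14, 123 FPKM in the OVOL1 line, 118 FPKM in the OVOL2 line and 84.3 FPKM in PC3-Epi.

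KCNN3 encodes a small-conductance calcium-activated channel, which senses calcium through bound calmodulin (chr1:154679915-154842754, minus strand). Its level was 1.84 FPKM in PC3-EMT14, 1.27 FPKM in the OVOL1 line, 0.711 FPKM in the OVOL2 line and 0.0908 FPKM in PC3-Epi. The order of the lines was the same as for KCNMA1. The gene was 20.3-fold lower in PC3-Epi and 2.51-fold lower in the OVOL2 line, and the 1.42-fold lower level in the OVOL1 line did not reach the limit. The PC3-Epi value is low, and the log2 ratio of PC3-Epi to PC3-EMT14 was -4.35 as deposited, -3.35 with 0.1 FPKM added to both values and -1.38 with 1 FPKM added. With 1 FPKM added, the log2 ratio of the OVOL2 line was -0.70 and no longer passed. KCNN4, the intermediate-conductance channel of the same gene family (chr19:44270685-44285409, minus strand), was abundant in every line, at 39.3, 29.4, 24.8 and 22.6 FPKM in PC3-EMT14, the OVOL1 line, the OVOL2 line and PC3-Epi. Its lines also stood in that order, with no fold of 2 in any comparison.

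KCNU1, a relative of the BK channel known from sperm, was at 1.15 FPKM in PC3-EMT14, 2.03 FPKM and 2.23 FPKM in the OVOL1 and OVOL2 lines, and 0.693 FPKM in PC3-Epi. It was thus higher in both OVOL lines and lower in PC3-Epi, with each fold under 2. The other 4 genes of the family (KCNN1, KCNN2, KCNT1 and KCNT2) did not exceed 0.0536 FPKM in any line.

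The beta and accessory subunits summed to 31.4 FPKM in PC3-EMT14, 30.9 FPKM in the OVOL1 line, 28.8 FPKM in the OVOL2 line and 9.67 FPKM in PC3-Epi. KCNAB2 made most of this sum in each of the 3 mesenchymal-derived lines. Of the 15 genes, 4 reached 1 FPKM.

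KCNAB2 encodes a beta subunit of voltage-gated channels of the KCNA family, with the fold of an aldo-keto reductase. Its level was 24.5 FPKM in PC3-EMT14, 25.5 FPKM in the OVOL1 line, 22.4 FPKM in the OVOL2 line and 3.98 FPKM in PC3-Epi. The OVOL lines stayed at the level of PC3-EMT14, 1.06-fold above and 1.06-fold below it, while PC3-Epi was 6.17-fold lower. The most abundant of 6 listed transcripts in PC3-EMT14 was at 12.3, 13.2, 9.15 and 0.979 FPKM in PC3-EMT14, the OVOL1 line, the OVOL2 line and PC3-Epi. A second transcript was at 8.59, 8.93, 10.1 and 2.28 FPKM in the same order. The first carried 50.2% of the gene's FPKM in PC3-EMT14 and 24.6% in PC3-Epi, and the second 35.0% and 57.3%. The more abundant transcript thus differed between these lines. In the OVOL1 line the first carried 52.0% and the second 35.1%, and in the OVOL2 line 40.9% and 45.0%. The second was therefore also the more abundant in the OVOL2 line, by a smaller margin than in PC3-Epi. The deposited locus (chr1:5922870-6161253) reaches further left than the annotated gene (6050987 to 6161253, plus strand), and exons of NPHP4 on the other strand overlap it. NPHP4 itself was at 4.96, 5.76, 5.31 and 5.14 FPKM in PC3-EMT14, the OVOL1 line, the OVOL2 line and PC3-Epi, and whether strand was used in counting is not given in the sources used here.

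The possible partners of KCNAB2 were scarce. All 8 KCNA genes were below 1 FPKM, with KCNA7 the highest at 0.0293 FPKM, and 3 of them were listed at 0 throughout.

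KCNMB4 and KCNMB3 encode beta subunits of the BK channel. KCNMB4 (chr12:70760062-70824978, plus strand) was at 1.31 FPKM in PC3-EMT14, 0.603 FPKM in the OVOL1 line, 0.84 FPKM in the OVOL2 line and 1.92 FPKM in PC3-Epi. It was 2.13-fold lower in the OVOL1 line than in PC3-EMT14, 1.51-fold lower in the OVOL2 line and 1.47-fold higher in PC3-Epi, and both OVOL lines were on the opposite side of PC3-EMT14 from PC3-Epi. With 0.1 FPKM added, its log2 ratio in the OVOL1 line was -0.98 and no longer passed. KCNMB3 varied little, from 1.24 FPKM in PC3-Epi to 1.82 FPKM in the OVOL2 line. Its exons overlap those of PIK3CA on the other strand, which was at 7.47 to 13.7 FPKM. The remaining beta subunits of the channel, KCNMB1 and KCNMB2, peaked at 0.00879 and 0.0500 FPKM. LRRC26, an auxiliary gamma subunit of the BK channel that was in a list of 10 channel partners with other names, was at 0.0697 FPKM in PC3-EMT14, 0.207 FPKM in the OVOL1 line, 0.535 FPKM in the OVOL2 line and 1.26 FPKM in PC3-Epi. It was therefore lowest where KCNMA1 was highest and the reverse, over 4 pooled values.

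KCNIP3, a calcium-binding protein that associates with KCND channels, ran from 1.19 FPKM in PC3-Epi to 1.96 FPKM in the OVOL2 line. Of its 3 KCND partners, KCND1 was the highest, with 0.706 FPKM in PC3-EMT14 against 0.28 FPKM in PC3-Epi. The 11 beta and accessory genes below 1 FPKM were led by KCNIP2 (0.772 FPKM in PC3-EMT14).

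**Figure D3:**
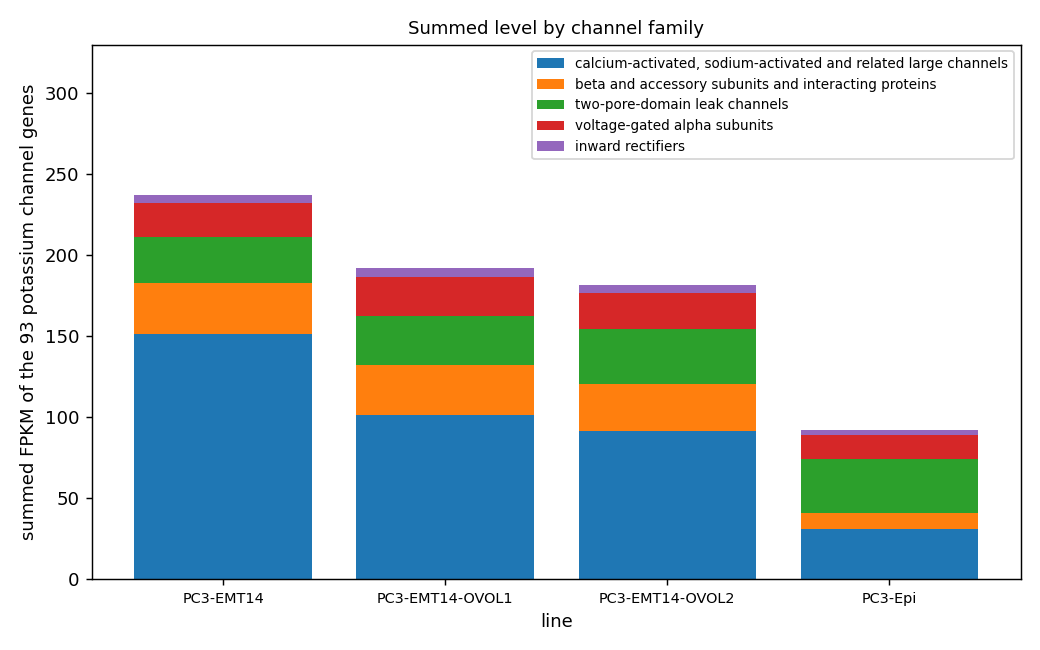
Summed FPKM of the 93 potassium channel genes in each line, stacked by family. The total is 237 FPKM for PC3-EMT14 and 92.2 FPKM for PC3-Epi, and the calcium-activated family is the largest part of the PC3-EMT14 bar.

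The two-pore-domain leak channels stood out by how little their sum varied. Their 15 genes summed to 28.1 FPKM in PC3-EMT14, 30.5 FPKM in the OVOL1 line, 34.0 FPKM in the OVOL2 line and 33.1 FPKM in PC3-Epi. Since the total of the set was lower in PC3-Epi, their share of it was 11.9% in PC3-EMT14 and 35.9% in PC3-Epi. KCNK1, which encodes a weakly conducting leak channel (chr1:233749750-233808258), made most of the sum, at 21.7, 23.1, 24.9 and 23.9 FPKM in PC3-EMT14, the OVOL1 line, the OVOL2 line and PC3-Epi. It was the most abundant potassium channel gene in PC3-Epi. KCNK6 was at 4.99, 5.30, 5.58 and 2.99 FPKM in the same lines, lowest in PC3-Epi by 1.67-fold.

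KCNK5 encodes a leak channel that opens at alkaline pH and acts in cell volume control (chr6:39156747-39197251, minus strand). It was at 2.37 FPKM in PC3-Epi, 0.00537 FPKM in PC3-EMT14, 0.00167 FPKM in the OVOL1 line and 0.00333 FPKM in the OVOL2 line. PC3-Epi was the single line above 0.01 FPKM, and neither OVOL line was above PC3-EMT14. The ratio of the deposited values, 442-fold, rests on a value near 0, and with 0.1 FPKM added to both values the log2 ratio was 4.55 rather than 8.79. KCNK16 and KCNK17 were listed at 0 in every line.

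KCNK15 encodes an acid-sensitive-type two-pore subunit that gives little current alone (chr20:43374488-43379668, plus strand). Its level was 1.16 FPKM in PC3-EMT14, 1.97 FPKM in the OVOL1 line, 3.17 FPKM in the OVOL2 line and 3.37 FPKM in PC3-Epi. PC3-Epi was 2.90-fold, the OVOL2 line 2.82-fold and the OVOL1 line 1.73-fold above PC3-EMT14, so that the OVOL2 line was close to PC3-Epi. With 1 FPKM added, the log2 ratio of the OVOL2 line was 0.97 and no longer passed. KCNK15 was the only gene of the set counted as higher in an OVOL line. Exons of RIMS4 on the other strand overlap it, and RIMS4 did not exceed 0.0407 FPKM. In both KCNK15 and KCNN3 the OVOL2 line was further from PC3-EMT14 than the OVOL1 line was, and the 2 OVOL lines did not differ by 2-fold from each other in either gene.

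The 40 voltage-gated alpha subunits summed to 20.8 FPKM in PC3-EMT14, 23.8 FPKM in the OVOL1 line, 22.2 FPKM in the OVOL2 line and 14.9 FPKM in PC3-Epi, and 6 of them reached 1 FPKM. KCNG1 (chr20:49620193-49639675, minus strand) was the most abundant, at 12.6, 14.3, 12.2 and 5.75 FPKM in these lines. It was 2.18-fold lower in PC3-Epi, and the OVOL lines stayed within 1.17-fold of PC3-EMT14. KCNG1 and KCNS3 encode electrically silent subunits, which are known to give current only when assembled with KCNB subunits. KCNB2 was listed at 0 in every line.

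KCNS3 (chr2:18059945-18114225, plus strand) was at 0.301 FPKM in PC3-EMT14, 0.675 FPKM in the OVOL1 line, 0.66 FPKM in the OVOL2 line and 1.16 FPKM in PC3-Epi. PC3-EMT14 was lowest, the OVOL lines were between, and PC3-Epi was highest, 3.85-fold above PC3-EMT14 (log2 ratio 1.94, or 0.73 and no longer past the limit with 1 FPKM added). The OVOL1 and OVOL2 lines were 2.29-fold and 2.27-fold above PC3-EMT14 but below 1 FPKM, and were not counted.

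KCNC4 was at 1.44, 1.93, 2.46 and 1.84 FPKM in PC3-EMT14, the OVOL1 line, the OVOL2 line and PC3-Epi. It was lowest in PC3-EMT14, with no fold of 2. KCNH2, which encodes the hERG channel of cardiac repolarization, was at 1.36, 2.26, 2.35 and 2.08 FPKM in the same lines, also lowest in PC3-EMT14 and without a fold of 2.

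The inward rectifiers were scarce throughout, with summed levels of 3.20 to 5.45 FPKM over 15 entries. The single entry at 1 FPKM, shared by KCNJ12 and KCNJ18, was at 2.31, 3.31, 2.90 and 1.51 FPKM in PC3-EMT14, the OVOL1 line, the OVOL2 line and PC3-Epi. These genes are near-identical copies of strong inward rectifiers, so their reads cannot be assigned to either. KCNJ8, the pore of a channel that ATP closes, peaked just below the limit and had the widest range of the low genes. It was at 0.826 FPKM in PC3-EMT14, 0.253 FPKM in the OVOL1 line, 0.18 FPKM in the OVOL2 line and 0.0161 FPKM in PC3-Epi. ABCC9, the regulatory subunit that pairs with it, peaked at 0.21 FPKM.

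**Figure D4:**
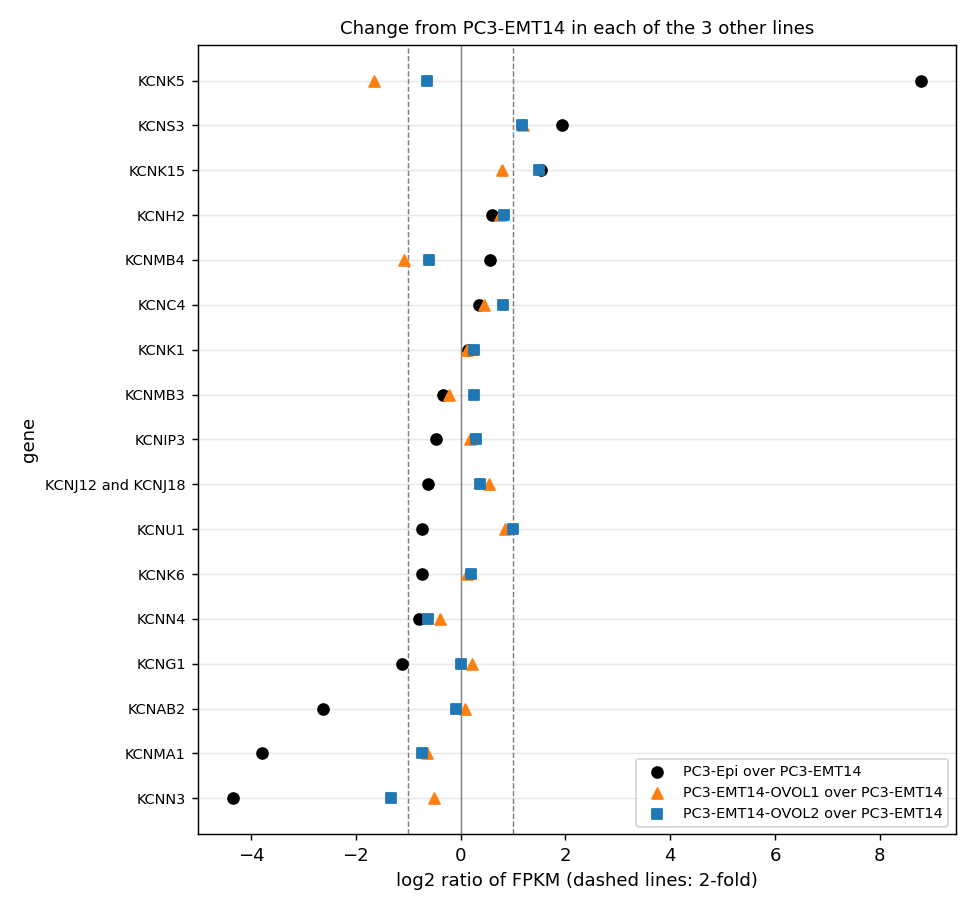
Log2 ratio of FPKM to PC3-EMT14 (horizontal axis) for 17 of the 19 genes, sorted by PC3-Epi (black circles), with the OVOL1 line as orange triangles, the OVOL2 line as blue squares and dashed lines at 2-fold. PC3-Epi spans -4.35 (KCNN3) to 8.79 (KCNK5), and the OVOL lines span -1.66 to 1.49, with KCNK5, KCNS3 and KCNMB4 below 1 FPKM in both OVOL lines.

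The directions in the 3 comparisons are listed side by side, but all of them share the PC3-EMT14 libraries and are not independent. How often each pattern occurs among all genes was not counted, so the counts describe these 19 genes only. Of the 19 genes, 6 were above PC3-EMT14 in all 3 other lines by any fold, among them KCNK1, KCNC4, KCNH2, KCNK15 and KCNS3, and 4 were below it in all 3, among them KCNN3, KCNMA1 and KCNN4. In 5 entries both OVOL lines were above PC3-EMT14 and PC3-Epi was below it (KCNG1, KCNK6, KCNU1, the KCNJ12 and KCNJ18 entry, and KCNIP3). In 2 genes, KCNMB4 and KCNK5, both OVOL lines were below it and PC3-Epi above. KCNAB2 and KCNMB3 were below PC3-EMT14 in PC3-Epi and split between the OVOL lines. Many of these differences were small, such as that of KCNK1, at most 1.19-fold.

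Of the 20 entries that peaked between 0.1 and 1 FPKM, 7 were at least 2-fold higher and 9 at least 2-fold lower in PC3-Epi than in PC3-EMT14, where 17.6% and 28.4% of the 2516 genes of that range were. Those higher in PC3-Epi included KCNG3 (PC3-EMT14 0.117 FPKM, PC3-Epi 0.737 FPKM), KCNJ11 (0.208 and 0.69 FPKM) and KCNJ14 (0.263 and 0.6 FPKM). Those lower included KCNJ6 (0.778 and 0.125 FPKM) and KCNF1 (0.705 and 0.132 FPKM). KCNG3 is a silent subunit, and KCNJ11 forms the pore of the ATP-closed channel of the beta cell. They were the 2 entries of the 20 at least 2-fold above PC3-EMT14 in the OVOL1 line, where 9.38% of the 2516 genes were. The same 2 were so in the OVOL2 line, where 16.7% were. More of the 20 were at least 2-fold below PC3-EMT14, 4 in the OVOL1 line and 3 in the OVOL2 line. The share of all genes on that side was not counted. KCNG3 was at 0.391 FPKM in the OVOL1 line and 0.295 FPKM in the OVOL2 line, and KCNJ11 at 0.47 and 0.548 FPKM. KCNV1 differed most between the OVOL lines, at 0.11 FPKM in the OVOL1 line and 0.544 FPKM in the OVOL2 line. At these levels the number of reads behind a value is unknown.

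Other genes that move potassium served as a comparison. Of 17 pump subunits 6 reached 1 FPKM, and ATP1B1 (PC3-EMT14 31.0 FPKM, PC3-Epi 77.5 FPKM) and FXYD3 (0.315 and 36.9 FPKM), subunits of the sodium pump, were higher in PC3-Epi. FXYD3, a regulator of the pump in epithelia, was also higher in the OVOL1 line (17.8 FPKM) and the OVOL2 line (47.2 FPKM). Of 7 cation-chloride cotransporters 4 reached 1 FPKM, and 0 differed by 2-fold. The entry of SLC12A4, among these 4, is shared with LCAT. Of 4 hyperpolarization-activated channels 1 reached 1 FPKM, HCN3, at 1.07 to 1.49 FPKM, and it did not differ by 2-fold in any comparison. Of the 10 channel partners with other names 3 reached 1 FPKM, and LRRC26 was the 1 that differed. Another of the 3, KCNRG, shares its entry with TRIM13, so that level cannot be assigned to KCNRG.

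Genes of any kind with the most similar pattern were sought for the called genes of highest level, among 11253 genes with 1 FPKM in each line, by the summed absolute difference of their log2 ratios to PC3-EMT14 over the 3 other lines. For KCNMA1 these were ISG20 (0.67), CDH11 (0.70) and FOXA2 (0.77). For KCNAB2 they were NFASC (0.55), ROBO4 (0.58) and LPIN2 (0.69), and for KCNG1 they were FHIT (0.12), GALNT14 (0.13) and DGCR6 (0.20). The values rest on 3 pooled ratios per gene. Epithelial and mesenchymal markers moved in the same comparisons, with VIM at 271, 183, 76.9 and 42.5 FPKM in PC3-EMT14, the OVOL1 line, the OVOL2 line and PC3-Epi, and their part in the potassium channel differences was not tested.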

How the data were processed

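RNA-seq of 10 samples in 4 lines was used. As the study's methods state, the authors used TopHat to align paired-end Illumina reads to the transcriptome of hg19 and then compared the lines by pairs in Cuffdiff, with upper-quartile scaling, compatible-hit normalization, and correction for multiply mapped reads and sequence bias. FastQC and Cufflinks are also named in the submitters' processing notes. The deposited FPKM values are 1 pooled value per line in each of 8 tables, 4 of 23170 genes and 4 of 37557 isoforms. The tables also hold the authors' fold changes, test statistics, p-values and q-values, which were not used. Columns of values per sample left unused number 0. In the headers the mesenchymal-derived lines carry a suffix with the word trim that PC3-Epi lacks, so a difference in read trimming, if there was any, and the line cannot be told apart.

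PC3-EMT14 values are from the PC3-Epi table, which were 1.02 times those in the OVOL1 table and 1.03 times those in the OVOL2 table (medians). Each fold was taken within 1 table, with no pseudocount. A gene was called at 1 FPKM in the higher line and a fold of at least 2 or at most 0.5. The rule named every member at 1 FPKM in any line, with folds where called, but some genes are not reported here. Isoform values were given for called members with 2 or more listed transcripts, and up to 3 genes of similar pattern for the called members of highest level. Low members named singly were chosen after their values were seen, and so were the 3 sequences. The members and lists were chosen with earlier results of these data known.

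Positions are those deposited on hg19, with strand and overlap from the GENCODE annotation of that build, which held 93 of 94 symbols. Python 3.11.15, numpy 2.4.6, pandas 2.3.3 and matplotlib 3.10.9 were used. Floors, fold limits, pseudocounts, status, centering, isoform sums and shared entries were varied. A planned search of protein sequences was not run.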

Additional observations from a re-analysis of the deposited data

How the results depend on the processing

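No paired analysis was possible because the deposited values are pooled over the samples of a line, and for the same reason no replicate could be left out. The counts of potassium channel genes at least 2-fold higher and lower depended on the FPKM floor and the fold limit. In PC3-Epi against PC3-EMT14 (4 higher, 5 lower), the higher count was 19 with no floor, 7 at a floor of 0.5 FPKM, 2 at a floor of 2 FPKM, 2 at 4-fold and 2 with a pseudocount of 1 FPKM, and the lower count was 33 with no floor, 10 at 0.5 FPKM, 9 at 1.5-fold and 3 at 4-fold. In the OVOL1 line (0 higher, 1 lower), the higher count was 12 with no floor, 2 at 0.5 FPKM and 3 at 1.5-fold, and the lower count was 24 with no floor, 2 at 0.5 FPKM, 2 at 1.5-fold, and 0 at 2 FPKM, at 4-fold and with a pseudocount of 0.1 or 1 FPKM. In the OVOL2 line (1 higher, 1 lower), the higher count was 18 with no floor, 4 at 0.5 FPKM, 4 at 1.5-fold, 2 after centering on the median of all genes (KCNU1 was added), and 0 at 4-fold and with a pseudocount of 1 FPKM, and the lower count was 14 with no floor, 3 at 0.5 FPKM, 4 at 1.5-fold, and 0 at 2 FPKM, at 4-fold and with a pseudocount of 1 FPKM. Between the OVOL lines (0 higher, 0 lower), the higher count was 13 with no floor, 1 at 0.5 FPKM and 1 at 1.5-fold, and the lower count was 4 with no floor and 1 at 1.5-fold. Another floor or fold limit changes the counts by its construction. The number of genes that reach 1 FPKM in any line stayed within 1.5 times 19 under each alternative, and no result reversed. Of the log2 ratios of single genes, 17 moved and 451 did not, and those that moved, KCNK5, KCNN3 and KCNS3 among them, did so under a pseudocount. The depth of the libraries is unknown, so how many reads lie behind the values below 1 FPKM cannot be stated.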
